A study of Homo sapiens with 19 samples.

Results

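ATP5C1, DNM1L, MFF and OPA1 are 4 human genes whose protein products work in mitochondria, and the exons that vary in their transcripts were followed through epithelial-to-mesenchymal transition (EMT) and AKAP8 knockdown. Every alternative splicing event that the deposited rMATS tables list for these genes was taken. That gave 86 of 100239 events and 4 of the 12003 genes with an event, of which ATP5C1 held 7 events, DNM1L 33, MFF 28 and OPA1 18. There were 61 skipped exon (SE) events of 73389 in all and 25 mutually exclusive exon (MXE) events of 18695, while no retained intron or alternative splice site event was listed for the 4 genes. The genes were selected on percent spliced in (PSI, the percent of transcripts that keep the exon) in these same libraries, so PSI differences are given as a description and their fitted tests support nothing further.

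The libraries came from HMLE/Twist-ER cells, a line of human mammary epithelial cells immortalized with TERT that carries the transcription factor Twist fused to the estrogen receptor (ER), so that tamoxifen switches Twist on and drives EMT. EPI cells received no tamoxifen, and MES cells were kept in 20 nM tamoxifen until they looked mesenchymal. RNA-seq of polyA RNA covered 3 EPI control, 3 EPI knockdown, 3 MES control and 2 MES knockdown libraries, where every cell carried a stable lentiviral shRNA, non-specific in the controls and against AKAP8, an RNA-binding protein, in the knockdowns. AKAP8 eCLIP, which maps the RNA sites bound by a protein after UV crosslinking, was run in 2 immunoprecipitated and 2 input samples of each state. All samples are of 1 cell line, and which of the study's shRNAs the knockdown libraries carry is not given in the sources used here. The p-values therefore concern libraries of this line only. Those of the quasi-binomial test described below rest mostly on the spread typical of all events, and little on that between an event's own libraries.

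ATP5C1 encodes the gamma subunit of the ATP synthase, the rotating central stalk of the enzyme that makes ATP at the inner mitochondrial membrane. DNM1L encodes DRP1, a dynamin-related GTPase that wraps around mitochondria and pinches them apart, and MFF is an outer membrane protein that recruits DRP1. OPA1 is the dynamin-related GTPase of the inner membrane, where it fuses inner membranes and shapes the cristae. Transcripts of all 4 genes are alternatively spliced between tissues, and the last coding exon choice of ATP5C1 is known to differ between muscle and other tissues.

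The 11 RNA-seq libraries held between 31258177 and 40852217 junction reads in SE events. Each library was summed over the events listed for 1 of its comparisons, and these differ between comparisons. AKAP8 itself had a mean of 266 ± 37.8 (SD, n = 3) scaled junction reads in EPI control, 115 ± 13.98 (n = 3) in EPI knockdown, 275 ± 96.2 (n = 3) in MES control and 115 ± 9.62 (n = 2) in MES knockdown, and no knockdown library reached the lowest control library of its state. The log2 fold change of AKAP8 was -1.20 in both states, with an adjusted p by limma of 0.0664 in EPI and 0.0322 in MES. Of the epithelial markers, the 6 of 12 that could be tested were lower in MES control than in EPI control, with a median log2 fold change of -3.81, and of the mesenchymal markers 10 of the 11 tested of 12 were higher, with a median over the tested genes of 4.29. No gene of the endothelial, blood or muscle lists could be tested for gene level. That test needs an SE event listed in all 3 comparisons as well as enough reads. A gene of the muscle list had SE events with at least 20 reads per library on average, 7 for MES knockdown and 6 between the controls.

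The exons that carried the PSI differences are printed here on the transcript strand in GRCh37, in lower case for intron or neighbouring exon and in capitals for the variable exon. All 4 genes lie on the plus strand, ATP5C1 at chr10:7830110-7849778, DNM1L at chr12:32832134-32898584, MFF at chr2:228189867-228222549 and OPA1 at chr3:193310933-193415600. The variable exon of ATP5C1 is 37 nt long (chr10:7848937-7848973), is exon 9 of 10 in the MANE Select transcript and is present in 5 of the 10 annotated transcripts. Its first 4 nt are coding and are followed by a stop codon, and the remainder is UTR. The coding sequence is 894 nt long with the exon and 891 nt without it, because the reading frame then ends in the next exon. The first line holds the upstream splice site with the start of the exon and the second the end of the exon with the downstream splice site. The last 2 lines hold the end of the coding message with and without the exon, where the preceding exon is in lower case and what follows it, up to the stop codon, is in capitals.
ATP5C1 37-nt exon start, chr10:7848914-7848943: ttttcttctaatataataaccagGGATTAA
ATP5C1 37-nt exon end, chr10:7848968-7848997: CAAGAGgtaaagttcacacattcttcccat
ATP5C1 message with the exon: tggtgctgcagctctGGATTAA
ATP5C1 message without the exon: tggtgctgcagctctGTAA

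DNM1L has a pair of neighbouring variable exons of 78 nt (chr12:32890799-32890876) and 33 nt (chr12:32891198-32891230), exons 15 and 16 of 20 in the MANE Select transcript, which encode part of the variable domain of DRP1. An intron of 321 nt lies between them. Both lengths are multiples of 3, so that either exon can be left out without a shift of the reading frame. They are shown with 20 intron bases on each side.
DNM1L 78-nt exon, chr12:32890779-32890896: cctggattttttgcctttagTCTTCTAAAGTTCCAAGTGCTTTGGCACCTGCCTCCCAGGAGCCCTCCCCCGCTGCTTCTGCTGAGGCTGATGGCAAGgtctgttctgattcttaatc
DNM1L 33-nt exon, chr12:32891178-32891250: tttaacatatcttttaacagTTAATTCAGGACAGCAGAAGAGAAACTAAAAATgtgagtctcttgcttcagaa

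MFF has variable exons of 75 nt (chr2:228207461-228207535), 159 nt (chr2:228211942-228212100) and 60 nt (chr2:228217230-228217289) between a common 89-nt exon and a common downstream exon, and OPA1 has a variable exon of 111 nt (chr3:193343881-193343991). The 159-nt and 60-nt exons are exons 6 and 7 of 9 in the MANE Select transcript of MFF, which lacks the 75-nt exon, and the OPA1 exon is exon 7 of 31. These lengths are multiples of 3 as well, and each exon is wholly coding in at least 5 annotated transcripts. The 75-nt and 159-nt exons of MFF are printed because the called MFF event weighs one against the other, and the OPA1 exon because it varied most in that gene.
MFF 75-nt exon, chr2:228207441-228207555: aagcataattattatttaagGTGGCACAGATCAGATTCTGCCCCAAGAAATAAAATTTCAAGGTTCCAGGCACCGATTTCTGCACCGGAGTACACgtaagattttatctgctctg
MFF 159-nt exon, chr2:228211922-228212120: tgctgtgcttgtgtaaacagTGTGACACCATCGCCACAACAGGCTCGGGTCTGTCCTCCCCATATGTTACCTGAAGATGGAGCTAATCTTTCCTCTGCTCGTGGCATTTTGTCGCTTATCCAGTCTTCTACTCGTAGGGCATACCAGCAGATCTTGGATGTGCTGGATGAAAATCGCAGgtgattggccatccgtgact
OPA1 111-nt exon, chr3:193343861-193344011: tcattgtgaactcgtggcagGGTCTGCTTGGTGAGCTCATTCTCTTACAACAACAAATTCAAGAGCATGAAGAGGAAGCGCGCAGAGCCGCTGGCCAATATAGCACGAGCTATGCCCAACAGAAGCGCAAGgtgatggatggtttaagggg

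The question put to each comparison was whether a library group kept these exons more or less often than another. An event was called when its adjusted p was under 0.05 and its PSI difference was at least 10 percentage points, in a quasi-binomial test fitted over all events of the type. The 4 genes had 12 such calls, which fell on 7 different events. For EPI knockdown against EPI control, 1 of the 54 SE events tested was called where 0.0588% of all SE events were, and for MES knockdown against MES control 1 of 41 was called where 0.0479% were. For MES control against EPI control 3 of 48 were called against 1.4% of all, and for MES knockdown against EPI knockdown 3 of 38 against 1.34%. Of the MXE events of these genes, 0 of 21 were called in the EPI knockdown comparison and 0 of 10 in the MES knockdown comparison, where 0.0261% and 0.0304% of all MXE events were called, and in each of these comparisons 1 MXE event had an unadjusted p under 0.05. The MXE counts were 3 of 17 between the controls and 1 of 8 between the knockdowns, against 2.29% and 0.699% of all. Because these PSI values chose the genes, nothing is read from the shares. The calls rest on the quasi-binomial test: limma on the logit of PSI called 0 events of the 4 genes in each comparison and, among all events, 0 for EPI knockdown, 0 for MES knockdown, 287 between the controls and 9 between the knockdowns, where the quasi-binomial test called 31, 24, 969 and 460.

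Across the 4 genes most exons did not vary. The SE events describe 39 different exons, and in 27 of them the mean PSI of every group was 95% or more, while in 2 it was 5% or less. Of the 10 exons in between, ATP5C1 held 1 of its 6, DNM1L 2 of 13, MFF 5 of 8 and OPA1 2 of 12. The plot of PSI by library shows 6 of these exons.

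**Figure D1:**
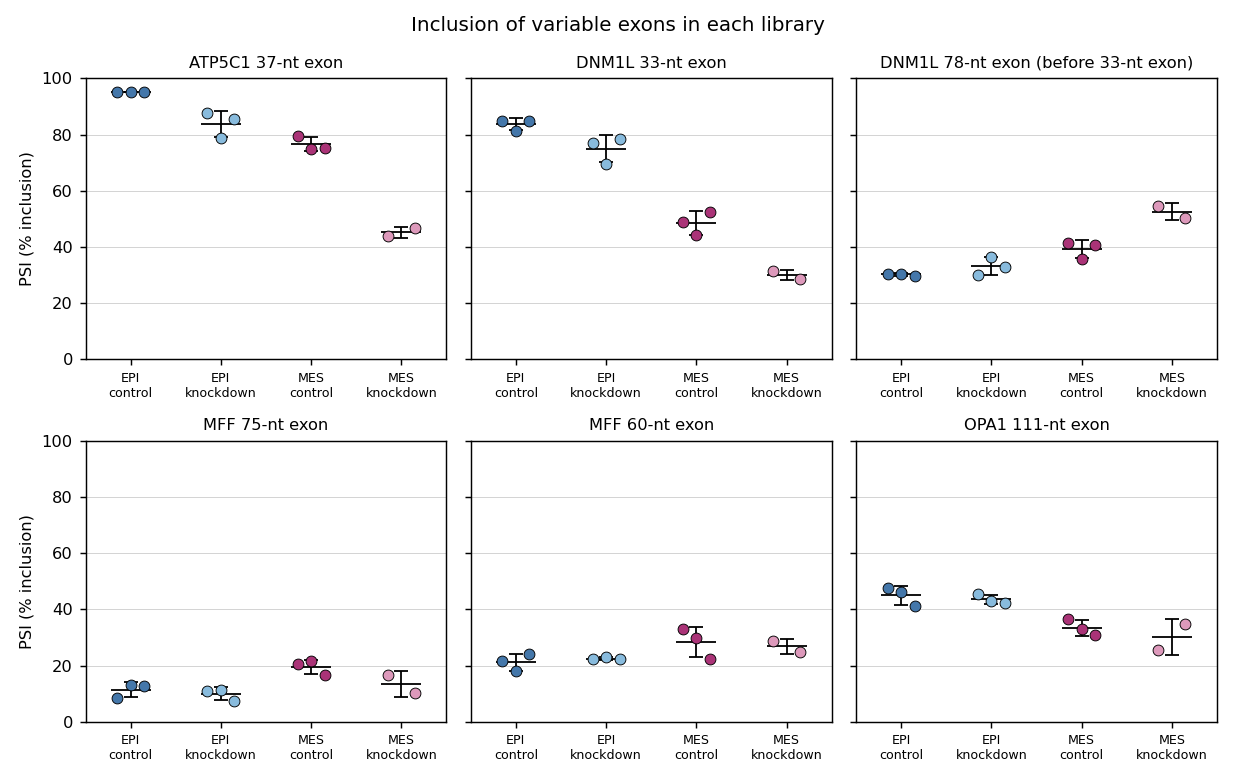
PSI (percent inclusion, vertical axis) of 6 variable exons in each of the 11 libraries, with points for libraries and bars for the group mean ± SD in EPI control, EPI knockdown, MES control and MES knockdown. The ATP5C1 exon goes from 95.1% in the 3 EPI control libraries to 43.8% and 46.6% in MES knockdown, and the DNM1L 33-nt exon from a mean of 83.8% to 29.9%, while the 3 MFF and OPA1 exons stay within narrower ranges.

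The 37-nt exon of ATP5C1 was kept less often in each knockdown group than in its control and less often in MES than in EPI cells. In EPI control its PSI was 95.1% in each of the 3 libraries. In EPI knockdown it was 87.5%, 78.7% and 85.4%, in MES control 79.5%, 74.97% and 75.4%, and in MES knockdown 43.8% and 46.6%. The 4 groups did not overlap in any of the comparisons, and MES knockdown stood farthest from the rest.

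The group means were 95.1 ± 0.0228% (SD, n = 3) in EPI control, 83.9 ± 4.62% (n = 3) in EPI knockdown, 76.6 ± 2.48% (n = 3) in MES control and 45.2 ± 2.01% (n = 2) in MES knockdown. In percentage points, EPI knockdown differed from EPI control by -11.3, MES knockdown from the 2 MES control libraries of its table by -32.0, MES control from EPI control by -18.5 and MES knockdown from EPI knockdown by -38.7, and each of these was called. As log2 odds ratios, which do not depend on how close PSI is to its upper limit, the differences were -1.91 (SE 0.276), -2.05 (SE 0.229), -2.57 (SE 0.267) and -2.66 (SE 0.239). The reads behind these values are many, with between 48 and 56 skipping reads in the EPI control libraries, 153 to 258 in EPI knockdown, 194 to 226 in MES control, and 616 and 456 in MES knockdown. The EPI call rests on the second EPI knockdown library, which has the lowest PSI of its group and also the lowest AKAP8 level (98.8 scaled reads), since without it the difference is -8.67 points and under the 10-point limit. Without division by effective lengths the EPI difference is -8.78 points and under the limit as well.

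In the whole SE table, the ATP5C1 exon had rank 1 of 43832 events by p in the MES knockdown comparison and rank 5 of 47579 in the EPI one. By size it had rank 3 of the 21 events called in MES and rank 26 of the 28 called in EPI, so in EPI it lies just inside the size limit. Between the controls it had rank 44 of 49330 by p and rank 426 by size of the 691 called. Ranks are given as a description, since the gene was chosen on these values. The other 5 ATP5C1 exons with an SE event had group means that differed by less than 1.3 points.

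The MXE event that sets the preceding 97-nt exon of ATP5C1 against the 37-nt exon was not called in either comparison that lists it. Its value, the percent of the 2 exons' reads given to the 97-nt exon, was 64.1%, 63.0% and 61.9% in EPI control, 60.2%, 71.2% and 65.9% in EPI knockdown, and 69.3%, 71.5% and 68.0% in MES control. The MES control libraries lay above the EPI control libraries by 6.60 points on average, and the EPI knockdown libraries spanned both. Between the controls the event missed the size limit only, with an adjusted p of 0.00245 by the quasi-binomial test. For EPI knockdown the difference was 2.76 points, with an adjusted p of 0.864 by the same test. The event is not listed in the MES knockdown table.

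DNM1L showed the widest range of the 4 genes. Against the message in which both variable exons are skipped, PSI of the 33-nt exon was 84.9%, 81.4% and 84.9% in EPI control and 77.0%, 69.5% and 78.3% in EPI knockdown. In MES control it was 49.0%, 44.1% and 52.4%, and in MES knockdown 31.3% and 28.6%. As for ATP5C1, the groups kept apart in all 4 comparisons and ran in the same order from EPI control to MES knockdown, and the second library was again the lowest of EPI knockdown.

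The group means of the 33-nt exon were 83.8 ± 2.04% (n = 3), 74.96 ± 4.77% (n = 3), 48.5 ± 4.16% (n = 3) and 29.9 ± 1.89% (n = 2) in the same order. MES control differed from EPI control by -35.3 points (log2 odds ratio -2.47, SE 0.296) and MES knockdown from EPI knockdown by -45.0 points (-2.87, SE 0.416), and both differences were called. The knockdown differences were -8.80 points in EPI (log2 odds ratio -0.75, SE 0.305) and -16.6 points in MES (-1.02, SE 0.409), and neither was called. Both lie more than 2 SE from 0 and had an unadjusted p under 0.05, but after adjustment over all 47579 and 43832 events tested the adjusted p of the quasi-binomial test was 0.705 in EPI and 0.763 in MES.

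A second SE event places the 33-nt exon after the 78-nt exon, among messages that hold the latter. There its PSI was 79.3%, 77.4% and 81.3% in EPI control, 77.6%, 81.4% and 81.5% in EPI knockdown, 67.2%, 67.4% and 70.6% in MES control, and 43.6% and 58.9% in MES knockdown. Both EPI groups overlapped, and the 2 MES knockdown libraries stood far apart. The difference of -29.0 points between the knockdown groups was called, but not without the first MES knockdown library (43.6%) or without the third EPI knockdown library, and the difference of -10.9 points between the controls was not called.

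The 78-nt exon moved differently depending on the message it was compared with. Against messages that skip both exons, its PSI was 63.2%, 58.0% and 63.4% in EPI control, 52.0%, 47.8% and 54.9% in EPI knockdown, 36.0%, 26.5% and 36.8% in MES control, and 39.3% and 27.5% in MES knockdown. MES control differed from EPI control by -28.4 points, which was called, and MES knockdown from EPI knockdown by -18.1 points, which was not called. Among messages that hold the 33-nt exon, by contrast, PSI of the 78-nt exon was higher in MES than in EPI libraries.

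In that second event the 78-nt exon had a PSI of 30.2%, 30.5% and 29.7% in EPI control, 30.03%, 36.4% and 32.8% in EPI knockdown, 41.4%, 35.6% and 40.5% in MES control, and 54.7% and 50.4% in MES knockdown. The MES knockdown libraries lay above all 9 others, and the MES control libraries above the EPI control libraries. The differences of 9.02 points between the controls and 19.5 points between the knockdowns were not called.

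The reads of the 3 junctions that pass over 1 or both exons can be set side by side. The junction from the 57-nt exon straight to the 33-nt exon took 76.7 ± 3.09% (SD, n = 3) of the 3 junctions' reads in EPI control, 69.1 ± 4.77% (n = 3) in EPI knockdown, 44.6 ± 2.86% (n = 3) in MES control and 26.0 ± 0.611% (n = 2) in MES knockdown. The junction from the 57-nt exon to the 177-nt exon, which skips both, took 13.96 ± 1.95%, 22.2 ± 4.93%, 43.0 ± 4.05% and 55.8 ± 5.14%. The junction from the 78-nt exon to the 177-nt exon took 9.39 ± 1.28%, 8.69 ± 0.877%, 12.4 ± 1.91% and 18.3 ± 5.75%. The junction that skips both thus held more reads than the junction into the 33-nt exon in MES knockdown, with 98 and 117 against 48 and 52. In EPI control it held fewer, with 61, 57 and 50 against 385, 258 and 295. Messages that hold both exons use none of the 3 junctions, so these are not shares of all messages. These shares come from the same reads as PSI and are no separate measurement.

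**Figure D2:**
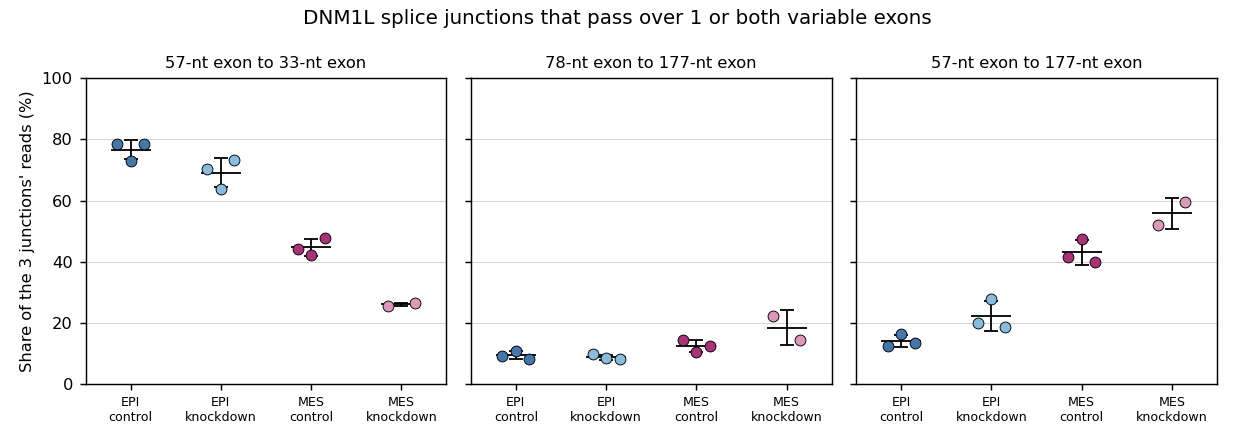
Share of reads (percent, vertical axis) of the 3 DNM1L junctions that pass over the 78-nt exon, the 33-nt exon or both, with points for libraries and bars for the group mean ± SD. The junction into the 33-nt exon goes from 76.7% in EPI control to 26.0% in MES knockdown, and the junction that skips both exons goes from 13.96% to 55.8%.

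The MXE event of DNM1L sets the 78-nt exon against the 33-nt exon between the same neighbours. The percent of reads given to the 78-nt exon was 23.3%, 23.999% and 23.5% in EPI control, 24.4%, 28.7% and 25.2% in EPI knockdown, 36.9%, 31.4% and 34.6% in MES control, and 58.8% and 48.7% in MES knockdown. The groups did not overlap in any comparison, and the differences of 10.7 points between the controls and 27.7 points between the knockdowns were called. The MES knockdown difference of 19.5 points was not called, although without the second MES knockdown library it is 24.6 points and called. The call between the controls is lost without the first MES control library, and the call between the knockdowns without the first MES knockdown library.

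The remaining MXE events of DNM1L divide the reads of a variable exon and a neighbour, or of neighbours that are both always kept. The 33-nt exon against the 177-nt exon took 26.2%, 27.4% and 23.3% of reads in EPI control, 19.8%, 21.1% and 25.0% in EPI knockdown, and 14.4%, 10.4% and 11.6% in MES control, a called difference of -13.5 points between the controls. The 177-nt exon against the 110-nt exon had 47.5%, 42.1% and 42.6% in EPI control, 39.9%, 43.6% and 45.2% in EPI knockdown, and 34.8%, 35.4% and 36.2% in MES control, a difference of -8.61 points between the controls that was not called. Neither event is listed for MES knockdown.

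Further MXE pairs of DNM1L gave values from nearly 0% to nearly 100%, and none was called. The 47-nt exon against the 72-nt exon ranged from 36.0% to 44.6% over the 9 libraries that list it, the 72-nt against the 87-nt exon from 44.6% to 56.0% over 11 libraries, the 163-nt against the 121-nt exon from 39.97% to 49.7% over 11, and the 90-nt against the 93-nt exon from 41.4% to 48.3% over the 6 EPI libraries. The 47-nt exon ranged from 98.0% to 99.7% against the 87-nt and from 39.1% to 49.4% against the 121-nt exon, the 93-nt exon from 66.1% to 75.4% against the 57-nt exon and the 57-nt exon from 80.3% to 85.4% against the 33-nt exon, each over the 6 EPI libraries. With other neighbours, the 72-nt exon took at most 1.05% against the 87-nt exon over these 6 libraries, and the 33-nt exon after the 78-nt exon took 6.71% to 13.2% against the 177-nt exon over the 9 libraries that list it. In MFF, likewise without a call, the 221-nt exon took 2.27% to 9.13% and the 170-nt exon 6.98% to 18.0% against the 89-nt exon. Over the 4 genes, 11 of the 22 MXE pairs join exons whose SE events have group means of 95% or more for both, so such values weigh the reads of exons that are not exclusive of each other.

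The 3 variable exons of MFF were kept in a minority of messages in every group. Against messages that run from the 89-nt exon straight to the last exon of the block, PSI of the 75-nt exon was 8.33%, 13.2% and 12.6% in EPI control, 11.1%, 11.5% and 7.22% in EPI knockdown, 20.5%, 21.5% and 16.5% in MES control, and 16.7% and 10.3% in MES knockdown. MES control lay above EPI control in all libraries, by 8.16 points, which is under the 10-point limit, and of the MES knockdown libraries 1 lay within the range of the EPI libraries and 1 above it. Skipping all 3 exons was the most used route, with 223 to 375 reads per library for the junction from the 89-nt exon to the last exon, against 65 to 139 into the 159-nt exon and 21 to 73 into the 60-nt exon.

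The 159-nt exon in the same frame had a PSI of 18.3%, 18.7% and 22.03% in EPI control, 17.8%, 19.7% and 21.5% in EPI knockdown, 21.1%, 21.6% and 15.6% in MES control, and 15.7% and 11.6% in MES knockdown. The 60-nt exon had 21.7%, 18.1% and 24.1%, then 22.2%, 23.1% and 22.2%, then 32.97%, 30.01% and 22.4%, and 28.7% and 24.9% in the same order. The EPI groups overlapped for both exons. Both exons were lower in the MES knockdown libraries than in the 2 MES control libraries of their table, by -7.71 points for the 159-nt and -4.67 points for the 60-nt exon, and between the knockdowns the differences were -6.01 and 4.31 points without overlap. None of these differences was called.

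The balance between the MFF exons differed more than each exon did alone. Among messages that hold the 75-nt or the 159-nt exon and join the last exon of the block, the 75-nt exon took 28.9%, 39.7% and 33.7% of reads in EPI control, 36.4%, 34.6% and 22.1% in EPI knockdown, 49.1%, 49.8% and 51.7% in MES control, and 51.8% and 46.6% in MES knockdown. All MES libraries lay above all EPI libraries, the difference of 16.1 points between the controls was called, and that of 18.2 points between the knockdowns was not, though it is called with all 11 libraries in 1 fit, with an adjusted p of 0.0428 by the quasi-binomial test. The knockdown differences within a state were -3.04 points in EPI and -0.25 points in MES. The call between the controls is lost without the first EPI control library.

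When both exons join the 60-nt exon in place of the last exon, the 75-nt exon took 13.997%, 23.4% and 18.3% against the 159-nt exon in EPI control, 21.0%, 22.2% and 8.12% in EPI knockdown, 22.7%, 29.8% and 22.2% in MES control, and 29.7% and 21.3% in MES knockdown, with overlap throughout. The 75-nt exon against the 60-nt exon took 24.7%, 40.7% and 31.2%, then 30.4%, 30.1% and 21.4%, then 34.4%, 39.0% and 40.7%, and 33.2% and 25.7%. The 159-nt exon against the 60-nt exon took 44.7%, 51.1% and 47.1%, then 43.2%, 44.9% and 49.0%, then 35.2%, 39.2% and 39.0%, and 31.6% and 28.4%, so that it was lower in all MES libraries than in any EPI library. The differences of -9.83 points between the controls and -15.7 points between the knockdowns were not called, though with all 11 libraries in 1 fit the latter is called with an adjusted p of 0.0131 by the quasi-binomial test.

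The remaining SE events of MFF set the same exons between other neighbours, and none was called. The 75-nt exon before the 159-nt exon ranged from 14.4% to 30.2% in EPI and from 31.7% to 41.8% in MES libraries, so that the states did not overlap, with a difference of 11.9 points between the controls. The 60-nt exon after the 159-nt exon ranged from 77.5% to 79.7% in EPI control, from 80.1% to 89.6% in EPI knockdown and from 85.4% to 91.9% in MES libraries. Over all libraries the 159-nt exon before the 60-nt exon ranged from 57.9% to 81.8%, the 75-nt exon before the 60-nt exon from 22.7% to 56.2%, and the 60-nt exon after the 75-nt exon from 59.5% to 83.4%. After the 75-nt exon, the 159-nt exon ranged from 87.7% to 98.5% before the 60-nt exon and from 28.1% to 70.4% before the last exon. Nearer to the start of the gene, the 112-nt exon ranged from 89.98% to 99.1% before the 221-nt exon and from 66.4% to 84.7% when the 221-nt exon is skipped, the 178-nt exon from 5.43% to 12.3%, and the 221-nt exon from 80.9% to 93.3% when the 112-nt exon is skipped.

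The 111-nt exon of OPA1 was the most variable of that gene. PSI of the 111-nt exon was 47.6%, 46.2% and 41.3% in EPI control, 45.5%, 43.1% and 42.5% in EPI knockdown, 36.5%, 33.1% and 30.9% in MES control, and 25.7% and 34.9% in MES knockdown. The MES libraries lay below all EPI libraries, with differences of -11.5 points between the controls (log2 odds ratio -0.70, SE 0.255) and -13.4 points between the knockdowns (-0.82, SE 0.389), and neither was called. Knockdown and control overlapped in both states, with differences of -1.38 points in EPI and -4.54 points in MES. Both differences between the states lie more than 2 SE from 0 and had an unadjusted p under 0.05, and after adjustment over all events the adjusted p of the quasi-binomial test was 0.163 between the controls and 0.405 between the knockdowns.

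The 108-nt exon of OPA1 was kept in most messages, with a PSI of 93.7%, 94.9% and 91.5% in EPI control, 92.1%, 93.5% and 90.0% in EPI knockdown, 96.6%, 95.1% and 91.6% in MES control, and 89.3% and 88.6% in MES knockdown. The 2 MES knockdown libraries were the lowest of the 11, and no difference was called. Of the OPA1 MXE pairs, the 97-nt exon took 6.60% to 14.8% against the 108-nt exon over the 8 libraries that list the pair, the 54-nt exon 25.4% to 38.8% against the 105-nt exon over 11, and the 81-nt exon 50.3% to 53.2% against the 75-nt exon over the 6 EPI libraries. The 131-nt exon took at most 1.23% against the 73-nt exon over the 6 control libraries, and none of these pairs was called.

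The plot of PSI differences places every tested event of the 4 genes side by side. The ATP5C1 exon is the single called point in both knockdown comparisons, and the DNM1L events make up the larger part of the called points between the states. The comparisons share libraries, since EPI control enters both the EPI knockdown and the control EMT comparison, so the panels are not independent of each other.

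**Figure D3:**
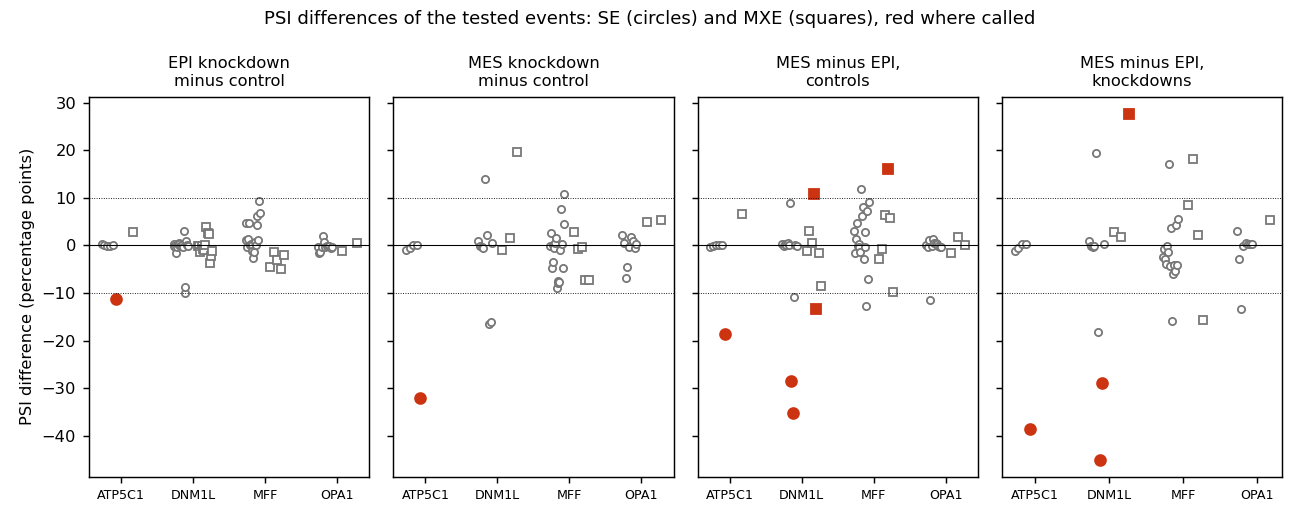
PSI difference (percentage points, vertical axis) of each tested event of the 4 genes in the 4 comparisons, with circles for SE and squares for MXE events, filled red where called, and dotted lines at 10 points either way. The lowest called points are -11.3 (EPI knockdown), -32.0 (MES knockdown), -35.3 (controls) and -45.0 (knockdowns).

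Whether the knockdown difference itself differed between MES and EPI was tested in 1 fit over the 11 libraries on the log odds scale. Of the 38 SE events of the 4 genes in that fit 0 were called, where 0.00993% of all SE events were, and 1 had an unadjusted p under 0.05. For the ATP5C1 exon the MES difference minus the EPI difference was -20.1 points, while the odds ratios of both states were close, and the adjusted p of the interaction was 0.971. For the DNM1L 33-nt exon the same value was -9.75 points with an adjusted p of 0.802, and for the 78-nt exon against both exons skipped it was 10.3 points with 0.709. A p above the threshold does not show that the states respond alike.

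Gene level was taken from the summed junction reads of a gene's SE events, scaled between libraries. A kept exon adds the reads of both its junctions and a skipped exon those of a single junction. A junction shared by several events is counted in each. The level is therefore not independent of PSI. The rule that chose the genes names summed junction reads beside PSI, so these levels and their tests are a description as well, and in bulk RNA they cannot tell fewer transcripts per cell from fewer cells that express the gene. None of the 4 genes passed a log2 fold change of 1 with an adjusted p under 0.05 in any comparison, where 0.189% of the 9016 genes tested did for EPI knockdown, 2.27% for MES knockdown, 12.5% between the controls and 12.3% between the knockdowns.

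DNM1L had the lowest levels in MES knockdown. Its libraries held 5534, 4555 and 5781 scaled reads in EPI control, 4576, 3271 and 5284 in EPI knockdown, 3445, 3691 and 4361 in MES control, and 2174 and 2521 in MES knockdown. Both MES knockdown libraries lay below the 9 others, and EPI knockdown overlapped EPI control. MES knockdown differed from EPI knockdown by a log2 fold change of -0.87 (SE 0.205) with an adjusted p by limma of 0.00866, which does not reach the size limit, and from MES control by -0.70 (SE 0.205) with 0.0700. Without the second EPI knockdown library the fold change between the knockdowns is -1.07, and with libraries scaled by their totals it is -1.09, and the gene is then called.

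OPA1 had 3530, 2781 and 3641 scaled reads in EPI control, 2673, 1607 and 3149 in EPI knockdown, 2579, 2136 and 3343 in MES control, and 1545 and 1480 in MES knockdown. The MES knockdown libraries were the lowest of the 11, closely followed by the second EPI knockdown library. The log2 fold change of MES knockdown was -0.80 (SE 0.262) against MES control, with an adjusted p by limma of 0.0982, and -0.66 (SE 0.262) against EPI knockdown, with 0.0944.

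ATP5C1 and MFF, in contrast, had narrower ranges. ATP5C1 had 9426, 9093 and 8611 scaled reads in EPI control, 9511, 9935 and 8631 in EPI knockdown, 8010, 7617 and 7422 in MES control, and 8730 and 7039 in MES knockdown. All MES control libraries of ATP5C1 lay below all EPI control libraries, with a log2 fold change of -0.235 (SE 0.130) that was not called. MFF had 5413, 5817 and 4698, then 5151, 6559 and 5074, then 5123, 5202 and 5024, and 5816 and 5360. The log2 fold changes with the knockdown were 0.05 (SE 0.130) in EPI and 0.03 (SE 0.146) in MES for ATP5C1, while its exon differed by 11.3 and 32.0 points, and 0.07 and 0.13 for MFF. The MFF levels of both MES knockdown libraries lay above the 3 MES control libraries, and the other knockdown and control groups of both genes overlapped. The sign of the ATP5C1 value in MES depends on the scaling, since with libraries scaled by totals it is -0.09. The interaction of state and knockdown was called for none of the 4 genes, where 0.0111% of all genes were, with adjusted p by limma of at least 0.814.

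**Figure D4:**
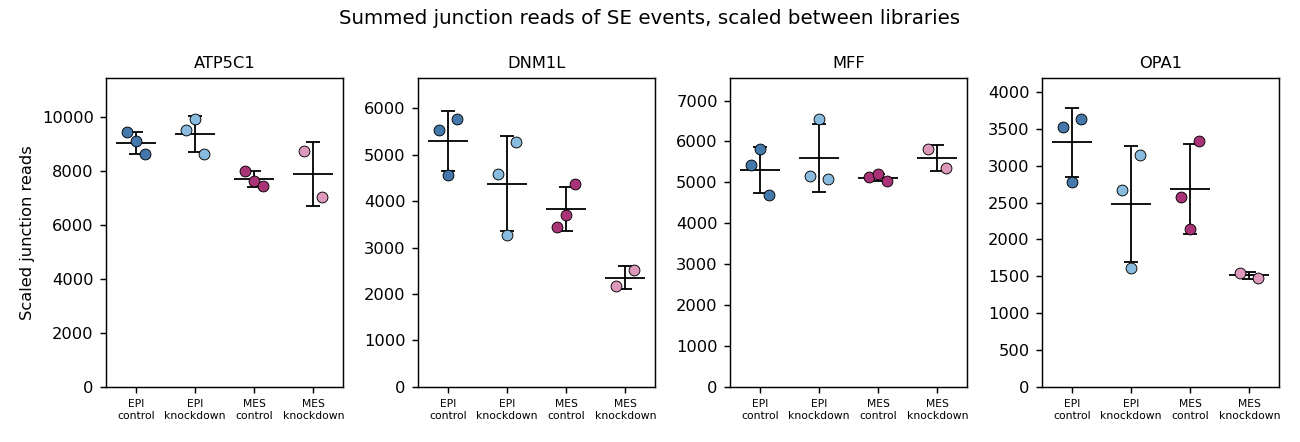
Gene level of the 4 genes as scaled junction reads of SE events (vertical axes, 1 scale per gene, each from 0), with points for the 11 libraries and bars for the group mean ± SD. DNM1L and OPA1 are lowest in the 2 MES knockdown libraries (2174 and 2521, and 1545 and 1480), and ATP5C1 overlaps between knockdown and control in both states and MFF in EPI.

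Other genes of mitochondrial fission and fusion were counted from a list of 35, of which 28 could be tested for gene level. None was called for either knockdown or between the controls, and 2 were called between the knockdowns, where 0.189%, 2.27%, 12.5% and 12.3% of all genes were called in the 4 comparisons. MTFR1L, a fission regulator-like protein, was higher in MES knockdown than in EPI knockdown with a log2 fold change of 1.46 (SE 0.283), at group means of 543 and 202 scaled reads, and OMA1, the inner membrane protease that cuts OPA1, was lower with -1.06 (SE 0.261), at 220 and 461. The medians of the list were 0.08, 0.13, -0.04 and -0.09 in the 4 comparisons, beside -0.01, -0.01, 0.01 and 0.02 over all genes.

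The exons of other genes on the list held calls as well. Outside DNM1L, MFF and OPA1, 0 of 136 SE events were called for EPI knockdown, 1 of 129 for MES knockdown, 3 of 135 between the controls and 4 of 87 between the knockdowns, beside 0.0588%, 0.0479%, 1.4% and 1.34% of all SE events. The 12-nt exon of DNM2 (chr19:10919245-10919256), a dynamin known from endocytosis, had mean PSI of 94.5 ± 0.635%, 87.1 ± 1.52%, 54.1 ± 4.18% and 31.5 ± 3.06% in EPI control, EPI knockdown, MES control and MES knockdown (n = 3, 3, 3 and 2), and was called for MES knockdown and in both state comparisons. The 57-nt exon of INF2 (chr14:105181621-105181677), a formin that builds actin at the sites of fission, had 92.2 ± 1.85%, 94.3 ± 4.27%, 61.7 ± 1.56% and 44.9 ± 1.81% and was called in both state comparisons. The remaining calls were of 2 exons of 139 nt of DNM2, 1 lower in MES in both state comparisons and 1 higher between the knockdowns.

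The cristae and ATP synthase lists held no call of gene level in any comparison, with 11 of 11 and 19 of 22 genes tested, beside the 0.189% to 12.5% of all genes called. Their medians in MES knockdown against MES control were 0.12 and 0.08 on the log2 scale, beside -0.01 over all genes. Among SE events, no cristae gene was called, and of the ATP synthase genes ATP5C1 was the sole one called, with 0 of 84 events of the others called for EPI knockdown, 0 of 88 for MES knockdown, 0 of 86 between the controls and 0 of 65 between the knockdowns. At the 0.0588% and 0.0479% of all SE events called for the EPI and MES knockdown, so few events would seldom hold a call. Between the states 1.4% and 1.34% were called, so that a call was less unlikely there. Nothing is read from these zeros.

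No AKAP8 eCLIP peak lay over any of the 4 genes on their strand, among the 21665 EPI and 26228 MES peaks past the cutoffs of a log2 of immunoprecipitate over input of at least 2 and a -log10 adjusted p of at least 3. In the same lists, 18.4% of the 11671 genes with an SE event held a peak in EPI and 11.4% in MES. Without the cutoffs, among all 24637 and 30390 listed peaks, there was again none. The nearest peaks on the same strand were 1586 kb away in EPI and 1556 kb in MES for ATP5C1, 13879 kb in both states for DNM1L, 3843 and 4351 kb for MFF, and 4062 and 4061 kb for OPA1. The lists hold merged peaks of 2 replicates and no values for positions without a peak, so how deeply these transcripts were covered could not be seen, and weaker binding was not detectable.

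Length, reading frame and base composition were not named by the rule, though length goes with PSI change among all exons. Of the 39005 different exons tested in the SE comparison of the controls, 3.10% were 40 nt or shorter, as are the 37-nt exon of ATP5C1 and the 33-nt exon of DNM1L, and 42.8% had a length divisible by 3, as have 8 of the 9 exons of these genes looked at here, the ATP5C1 exon being the exception. The 9 are the ATP5C1 exon and those of DNM1L (78 and 33 nt), MFF (75, 159 and 60 nt) and OPA1 (108, 111 and 54 nt). The 54-nt exon was kept in nearly all messages of every group. Among the 637 exons called between the controls, 11.1% were 40 nt or shorter and 60.8% had a length divisible by 3. The median GC content was 48.0% over all exons, 37.8% in the ATP5C1 exon, 30.3% in the 33-nt exon of DNM1L and 59.0% in its 78-nt exon. Each of the 9 exons is flanked by AG and GT, as were 98.9% of all.

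Known splicing motifs were searched in 200 nt of intron on each side, on the transcript strand. TGCATG, the element that RBFOX proteins bind, occurred before 5.57% and after 5.96% of all exons tested. It begins 134 nt before the ATP5C1 exon (chr10:7848803-7848808), 27 nt after the 78-nt exon and 27 nt before the 33-nt exon of DNM1L, both in the intron that separates them, and 68 nt after the 60-nt exon of MFF. That is 4 of the 9 exons, where 11.2% of all exons tested have it on either side. The 9 come from genes chosen on PSI, and the share among exons that vary was not counted, so nothing is read from this difference. GGTGG was found before the 159-nt exon of MFF only, at 114 nt, against 23.0% of all exons before and 27.0% after, and ACTAAC, a QKI element, was found beside none of the 9, against 2.50% and 2.20%. A match describes letters and no binding.

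The exons of other genes whose PSI ran most like those above were found by Pearson's r over the 11 libraries. The 3483 candidate SE events had at least 20 reads per library on average and group means of PSI that spanned at least 10 points. Candidates that differ between the groups were thus picked beforehand, which favours a high r. The 60-nt exon of MFF itself spans 7.18 points. The points are 4 groups of libraries that differ as groups, so r largely restates the order of the group means. ADGRG6 (r = 0.986), PAPOLA (0.957), PLD3 (0.956), SUN1 (0.954) and OFD1 (0.947) were nearest to the ATP5C1 exon, and the exon of ADGRG6 had group means of 95.1%, 87.0%, 81.6% and 49.1%. For the 78-nt exon of DNM1L among messages with the 33-nt exon these were RPAIN (0.968), CSNK1G3 (0.967), AP1B1 (0.946), ARIH2 (0.940) and CAST (0.939). C2CD5 (0.936), ST3GAL6 (0.921), PISD (0.913), MAP3K3 (0.910) and DHX30 (0.908) were nearest to the 60-nt exon of MFF, and SMUG1 (0.970), MIF4GD (0.961), TINF2 (0.947), TRERF1 (0.941) and PLEC (0.934) to the 111-nt exon of OPA1. The exon of SMUG1 had group means of 91.9%, 91.4%, 80.2% and 74.3% and the OPA1 exon 45.05%, 43.7%, 33.5% and 30.3%, so exons of unlike level can rank side by side.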

How the data were processed

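PolyA RNA-seq of 11 libraries and AKAP8 eCLIP of 8 samples were used as deposited, grouped by the labels. Per the study's methods, the authors aligned unique reads to GRCh37 with STAR, counted splice junctions with rMATS and merged eCLIP peaks over replicates. The deposited rMATS tables (5 event types in each of 3 comparisons) hold inclusion and skipping read counts per library in 1 field per group, and the deposited peak lists hold the log2 of immunoprecipitate over input and the -log10 adjusted p. The 30 columns of per-library PSI, the authors' fold changes and p-values and their gene table, which holds such comparisons, were not used here. Library numbers are places in a group's list, and the fields carry no replicate numbers. Reads of libraries shared by 2 tables were identical.

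PSI was computed from reads divided by effective lengths. Events with at least 20 reads per library on average entered a quasi-binomial F test with spread moderated across events (limma 3.58.1 in R 4.3.3), adjusted by Benjamini-Hochberg within event type and comparison. The moderation drew the spread of an event almost wholly to a trend over all events. The test of the 12-nt exon of DNM2, for example, had 66444 degrees of freedom between the controls. The p-values, the ranks by p and the SE of log2 odds ratios thus say little about an event's own spread between libraries. MES knockdown was compared with MES control libraries 1 and 2, and MES with EPI knockdown for events in both knockdown tables. An exact permutation test of 1 event cannot go below a two-sided p of 0.1 for 3 against 3 libraries, 0.2 for 3 against 2 and 0.333 for 2 against 2, so no such test is given. Gene level was tested with limma on log2(scaled reads + 1), with median-of-ratios scaling, for genes with at least 10 reads in 2 libraries. A gene also needed an SE event listed in all 3 comparisons. A fold change on this scale understates changes of low genes. Peaks were assigned by overlap with a gene on its strand. Annotation was Gencode lifted to GRCh37, in which ATP5C1 is named ATP5F1C, and sequences were read from GRCh37 by position with Python 3.11.15. The quasi-binomial test was first checked on simulated SE events that all had the same overdispersion, and the gene test on simulated MES knockdown reads. MXE events were not simulated. The check does not show that the p-values hold where spread differs from event to event.

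The genes, the lists of fission and fusion, cristae, ATP synthase and marker genes and the tests were chosen with earlier results of these data known. Exons given in every library have at least 20 reads per library and a group mean between 5% and 95%, at most 6 pairs or exons per gene by reads of the rarer form, plus any other that was called. The exons most alike are the 5 of other genes with the highest r. The DNM1L and MFF exons against other neighbours than the outermost were added to these after their values were seen.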

Additional observations from a re-analysis of the deposited data

How the results depend on the processing

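The test decides the counts of called events. With limma on the logit of PSI in place of the quasi-binomial test, the 1, 1, 6 and 4 calls for EPI knockdown, MES knockdown, the controls and the knockdowns were 0 in each comparison, where that test called 0, 0, 287 and 9 events of all genes against 31, 24, 969 and 460. Its adjusted p for the ATP5C1 exon was 0.908, 0.926, 0.0590 and 0.324 (over all alternatives, leave-one-out included, the lowest were 7.70e-13, 6.02e-21, 1.42e-24 and 2.94e-40), with unchanged PSI differences. Without effective lengths the EPI count was 0 as well, since the ATP5C1 difference was -8.78 points, and the 75-nt exon of MFF was called between the controls at 11.5 points. Leaving out 1 library at a time gave 0 to 1 calls for EPI knockdown (0 without the second knockdown library), 1 to 2 for MES knockdown (2 without the second knockdown library), 5 to 6 between the controls and 2 to 4 between the knockdowns (2 without the first MES knockdown library), and 0 for the interaction. With all 11 libraries in 1 fit the counts were 1, 1, 5 and 6, where 2 MFF pairs were added between the knockdowns. For gene level the count of 0 was 1 with libraries scaled by totals, and 0 to 1 when 1 library was left out (1 without the second EPI knockdown library), from DNM1L between the knockdowns. Peak counts were 0 also at a log2 of at least 3, and the alternatives on peak overlap and distance gave no value, as no peak was there.

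Of 520 alternative values of named exons and genes, 493 kept their direction and side of the threshold. Signs turned for values that were not called: by totals the ATP5C1 level was -0.0936 for MES knockdown and the MFF level -0.208 between the knockdowns, and -0.0383 from the SE event with most reads. Leaving out 1 library, values ranged from -3.74 to 8.07 points for the 78-nt DNM1L exon and -9.14 to 0.0505 for the OPA1 exon in MES knockdown, -6.43 to 2.76 for the OPA1 interaction, and on the log2 scale -0.126 to 0.185 for ATP5C1 in MES knockdown and, for MFF, -0.0491 to 0.139 in EPI knockdown, -0.133 to 0.0207 between the controls and -0.0580 to 0.127 between the knockdowns. No paired analysis was possible because the columns carry no replicate numbers, so that those of the labels could not be tied to the places in a group's list. By place, the second library had the lowest and the third the highest OPA1 level in each group of 3. The number of libraries, 2 against 2, limits the MES knockdown comparison. Its knockdown libraries have the highest sums of SE junction reads of the 11. Those sums run over different events in different comparisons, so they do not rank the libraries by depth.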
